A study of Mus musculus with 16 samples.

Results

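The proteasome genes described here are the 50 genes, of 19938 measured, whose symbol on the array begins with Psma, Psmb, Psmc, Psmd, Psme, Psmf or Psmg followed by a digit. They were chosen by symbol alone. They occupy 56 of the rows that name exactly 1 gene, and the row with the highest mean over 16 arrays stood for each gene. By role they comprise 31 constitutive subunits of the 26S proteasome (14 of the core and 17 of the regulatory cap), 3 immunoproteasome subunits, 4 activators, 1 inhibitor, 4 core assembly chaperones, 3 chaperones of the cap base, a testis form (Psma8) and a thymus form (Psmb11). The symbol rule also takes in Psmc3ip, a meiotic recombination factor, and Psme3ip1, which binds an activator. Neither is a proteasome subunit, so 48 of the 50 are proteasome genes proper.

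The data are single-colour whole-transcript arrays of mouse kidney tissue, 1 array per labelled biological replicate. The study crossed a tubular knockout of Vhl, the gene whose product marks hypoxia-inducible factor for destruction by the proteasome, with acute kidney injury (AKI) from muscle breakdown. In the VHL-KO/AKI group (5 arrays) mice received doxycycline at 0.1 mg per 10 g of body weight under the skin, 4 days before they were killed, and also 50% glycerol at 0.05 ml per 10 g into the left hind limb. The AKI group (5 arrays) had glycerol without doxycycline, the VHL-KO group (3 arrays) doxycycline without glycerol, and the Control group (3 arrays) was untreated. Every mouse of every group, Control included, carried the doxycycline-inducible tubular knockout transgene, which the design text ties to a Pax8-rtTA driver. Water was withheld from 20 h before to 24 h after glycerol, and no array of a mouse with water withdrawal alone, or with doxycycline but without the transgene, was analysed here. Mice of both sexes weighing 24 to 31 g were used, and the labels state no age.

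The 26S proteasome degrades proteins that carry ubiquitin chains. Its core is a barrel of stacked rings in which alpha subunits form the gate and beta subunits hold the cutting sites. The regulatory cap sits on the barrel's ends, where lid and base subunits recognise ubiquitin, remove it, and unfold the substrate with a ring of ATPases. Under interferon, immune and other cells exchange the catalytic beta subunits for inducible ones and so build the immunoproteasome, which cuts peptides suited to display on major histocompatibility complex (MHC) class I molecules. Constitutive subunit genes are known to rise together through the transcription factor Nfe2l1 when proteasome capacity falls short, and Nfe2l2, the factor of the antioxidant response, is also known to raise many of them.

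Promoters are shown for 4 members, each of which holds the motif marked in it. They are Psmc6 and Psmd12, among the members with the largest rise in injured kidneys, Psmb5, a catalytic subunit with one of the smallest differences, and Psme1, the activator that fell. Each runs 5′ to 3′ on the gene's own strand over 300 bases, 250 before and 50 after the annotated start, from RefSeq on build GRCm38.p6. In the first 3 the capitals mark a match to TGACNNNGC, the core of the antioxidant response element through which Nfe2l1 and Nfe2l2 are known to act, on either strand. In Psme1 they mark a match to GAAANNGAA, the core of the interferon-stimulated element. Of the 8 members with the largest rise in AKI, Psma5, Psmd14, Psma1, Psmd1, Psma2 and Psma7 held no TGACNNNGC and are not shown. The windows are chr14:45329574-45329873 on the plus strand for Psmc6, chr11:107479278-107479577 on the plus strand for Psmd12, chr14:54617946-54618245 on the minus strand for Psmb5 and chr14:55578244-55578543 on the plus strand for Psme1.
Psmc6: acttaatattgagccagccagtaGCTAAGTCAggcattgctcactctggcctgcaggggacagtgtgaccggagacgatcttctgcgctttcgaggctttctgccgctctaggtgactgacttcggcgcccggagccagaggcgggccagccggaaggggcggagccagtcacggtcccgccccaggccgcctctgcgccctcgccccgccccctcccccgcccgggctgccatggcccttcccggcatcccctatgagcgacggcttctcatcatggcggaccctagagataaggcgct
Psmd12: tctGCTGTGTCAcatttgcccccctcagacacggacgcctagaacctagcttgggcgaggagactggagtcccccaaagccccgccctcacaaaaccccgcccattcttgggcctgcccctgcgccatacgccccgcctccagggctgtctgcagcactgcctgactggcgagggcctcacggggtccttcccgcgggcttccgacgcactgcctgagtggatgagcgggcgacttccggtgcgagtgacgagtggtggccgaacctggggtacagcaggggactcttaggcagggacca
Psmb5: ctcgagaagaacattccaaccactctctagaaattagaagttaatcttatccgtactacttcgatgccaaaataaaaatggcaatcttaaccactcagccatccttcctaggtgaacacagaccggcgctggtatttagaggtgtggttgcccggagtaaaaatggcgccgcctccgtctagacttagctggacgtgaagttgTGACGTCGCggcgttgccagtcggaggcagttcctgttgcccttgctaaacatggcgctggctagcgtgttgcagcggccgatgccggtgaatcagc
Psme1: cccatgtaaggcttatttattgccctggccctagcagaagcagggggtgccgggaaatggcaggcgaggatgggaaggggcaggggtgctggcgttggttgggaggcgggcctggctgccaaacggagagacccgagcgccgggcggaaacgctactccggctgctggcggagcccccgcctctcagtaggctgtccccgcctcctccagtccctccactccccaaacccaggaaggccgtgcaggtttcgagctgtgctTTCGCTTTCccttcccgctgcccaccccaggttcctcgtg

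The table held a window for 42 of the 50 members. TGACNNNGC stood in 6 of the 42 (14.3%), which are Psmb5, Psmb6, Psmc6, Psmd9, Psmd12 and Psme4, against 12.4% of all 32851 windows of the table and 15.2% of the 15614 tested genes with a window. Among the members that rose in AKI kidneys the share was 3 of 24 (12.5%). GAAANNGAA stood in 7 of the 42 members (16.7%), against 8.6% of all windows and 9.2% of the tested genes, and CCAAT in 16 (38.1%), against 37.4% of all windows and 41.7% of the tested genes. ACGTG, the core of the hypoxia response element, stood in 9 of the 42 (21.4%), against 19.6% of all windows and 24.4% of the tested genes. TTCNNNGAA, a form of the STAT site, stood in 3 (7.1%), against 8.3% of all windows and 9.0% of the tested genes. All motifs were searched on both strands. A match is a description of the letters and not of binding, and TGACNNNGC is also contained in the looser TGANNNNGC, which 25 of the 42 members (59.5%), 41.3% of all windows and 45.8% of the tested genes held.

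Libraries that stood apart are described before the results. Markers of the proximal tubule (7 genes) and of the thick ascending limb (4 genes) averaged between 12.0 and 12.3 in every Control array, so the defining markers of the labelled tissue were present. Vhl read 6.41, 6.35, 6.52, 6.66 and 6.54 in VHL-KO/AKI kidneys, against 7.16, 7.12, 7.17, 7.01 and 7.36 in AKI kidneys, and its values were lower in every doxycycline array than in any array without it. The fitted Vhl difference was -0.67 in injured kidneys (adjusted p = 9.98e-05) and -0.40 in uninjured ones (adjusted p = 0.0565). The array AKI 4 correlated least with its own group (mean r = 0.973, against 0.988 to 0.989 for the other AKI arrays). It averaged 10.34 over 3 injured tubule markers, against 12.41 to 12.83 in the other AKI arrays.

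The injured and uninjured groups also differed in the sex-linked genes. Xist, which silences an X chromosome in females, read 4.30 to 4.49 in VHL-KO/AKI and 4.16 to 5.08 in AKI arrays, against 11.32 to 11.47 in VHL-KO and 10.23 to 11.19 in Control arrays. The mean of 3 Y-linked genes was 7.77 to 8.27 in the injured arrays, against 4.81 to 5.01 in the uninjured ones other than Control 3, which read 7.43 for these genes and 10.23 for Xist. Injury and this signal can therefore hardly be told apart in AKI against Control or in VHL-KO/AKI against VHL-KO. With the sex-linked level (Xist minus the Y-linked mean) as a covariate, 0 of 50 members and 0 of 19938 genes were called in either comparison by limma, and 0 members had an unadjusted p under 0.05. The median standard error of the called members was then 0.628, against 0.142 without the covariate, in AKI against Control, and 0.699, against 0.137, in VHL-KO/AKI against VHL-KO. Every statement below on injury carries this limit. It does not touch VHL-KO/AKI against AKI, since the sex-linked level was low in both groups. VHL-KO against Control and the interaction carry part of it through Control 3, whose sex-linked level was 2.80. That level was 5.99 and 6.23 in the other controls and 6.47 to 6.66 in VHL-KO arrays. With the covariate 18 of 19938 genes were called in VHL-KO against Control, against 105 without it. Members called there were 0 in either fit.

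After glycerol the genes of the constitutive proteasome were higher almost across the board. The inducible subunits Psmb9 and Psmb10, the activator Psme1 and the core chaperone Psmg1 were called lower in AKI kidneys. In AKI against Control kidneys 29 of the 50 members rose and 4 fell at an adjusted p under 0.05 (limma, 2-sided, Benjamini-Hochberg over 19938 genes), while 13.2% of all genes rose and 14.9% fell. The lower calls were thus a smaller share of the members than of all genes, and without Control 2 only that of Psme1 remained. In VHL-KO/AKI against VHL-KO kidneys, a comparison that shares no array with it, 29 members rose and 1 fell, against 4.66% and 8.91% of all genes. All AKI arrays lay above all Control arrays in 24 members and below them in 4, against 13.5% and 13.8% of all genes. All VHL-KO/AKI arrays lay above all VHL-KO arrays in 33 members and below them in 4, against 9.42% and 14.9% of all genes. Kidney homogenates are mixtures, so fewer cells of a type and less RNA per cell cannot be told apart in any of these values.

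The 31 constitutive subunits held 27 of the 29 rising members in AKI and 28 of the 29 in VHL-KO/AKI. In AKI against Control 27 of the 31 rose and 0 fell (30 of 31 at an unadjusted p under 0.05, against 7613 of 19938 genes). The median log2 difference was 0.74 and the range 0.23 to 1.40, against a median of 0.02 over all genes. In the knockout pair, VHL-KO/AKI against VHL-KO, 28 of 31 rose and 0 fell (31 of 31 at an unadjusted p under 0.05, against 5442 of 19938 genes). The median was 0.71 and the range 0.33 to 1.22, against a median of -0.01 over all genes. The mean log2 level of the 31 subunits was 10.27, 10.24, 10.12, 10.42 and 10.41 in VHL-KO/AKI arrays, against 9.55, 9.53 and 9.60 in VHL-KO arrays. It was 10.47, 10.36, 10.30, 9.88 and 10.51 in AKI arrays, against 9.46, 9.57 and 9.65 in Control arrays. No injured array reached down to an uninjured one, and the fourth AKI array, AKI 4, lay closest to them. AKI 4 was the lowest AKI array at 28 of the 31 subunits and lay above all 3 controls at 23 of them, whereas the other 4 AKI arrays lay above all 3 controls at 30. Without AKI 4, 35 of the 50 members rose and 4 fell, against 17.2% and 17.0% of all genes. Cell type markers moved in the same comparisons: in AKI against Control 6 of 7 proximal tubule and 3 of 4 thick ascending limb markers fell (median log2 differences -1.41 and -2.35), and 5 of 5 neutrophil markers rose (median 1.22). In VHL-KO/AKI against VHL-KO 4 of 7 proximal tubule markers fell (median -0.89) and 0 of 5 neutrophil markers passed the test (1 at an unadjusted p under 0.05). In the same comparison 1 of 4 thick ascending limb markers fell (median -1.13), as did 4 of 5 endothelial markers (median -0.42). The thick ascending limb mean was 10.09 to 11.60 in VHL-KO/AKI and 9.36 to 11.58 in AKI arrays, against 12.08 to 12.21 in VHL-KO and 12.02 to 12.34 in Control arrays. The endothelial mean was 9.18 to 9.30 in VHL-KO/AKI and 8.88 to 9.31 in AKI arrays, against 9.73 to 9.94 in VHL-KO and 9.24 to 9.37 in Control arrays. The proximal tubule mean was 10.63 to 11.32 in VHL-KO/AKI and 10.23 to 11.68 in AKI arrays, against 11.62 to 11.86 in VHL-KO and 12.07 to 12.18 in Control arrays, and the part of the cell mixture in the rise was not tested. With the sex-linked covariate the median over the 31 was 0.13 in AKI against Control (24 of 31 above 0) and 0.03 in VHL-KO/AKI against VHL-KO (18 of 31 above 0).

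Control 3, the only array with both sex-linked signals, lay above the other controls in 22 of the 29 members that rose in AKI. All 5 AKI arrays exceeded Control 3 in 26 of the 29, and the 4 AKI arrays other than AKI 4 exceeded it in all 29. These 29 were selected by their rise over a Control group that holds Control 3, so these latter counts were largely fixed in advance. No count on the 29 was made over all genes. Over the 31 constitutive subunits the median of Control 3 minus the mean of the other controls was 0.17 on the log2 scale, against 0.005 over all genes. The median of the AKI mean minus Control 3 was 0.63. With Control 3 as the one control array, an alternative chosen after seeing the data in which its spread is taken from the other groups, 5 members were higher (Psma3, Psmc1, Psmd1, Psmd12 and Psmd14) and 1 was lower (Psme1), while the calls over all genes came to 2.61% higher and 3.87% lower.

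**Figure D1:**
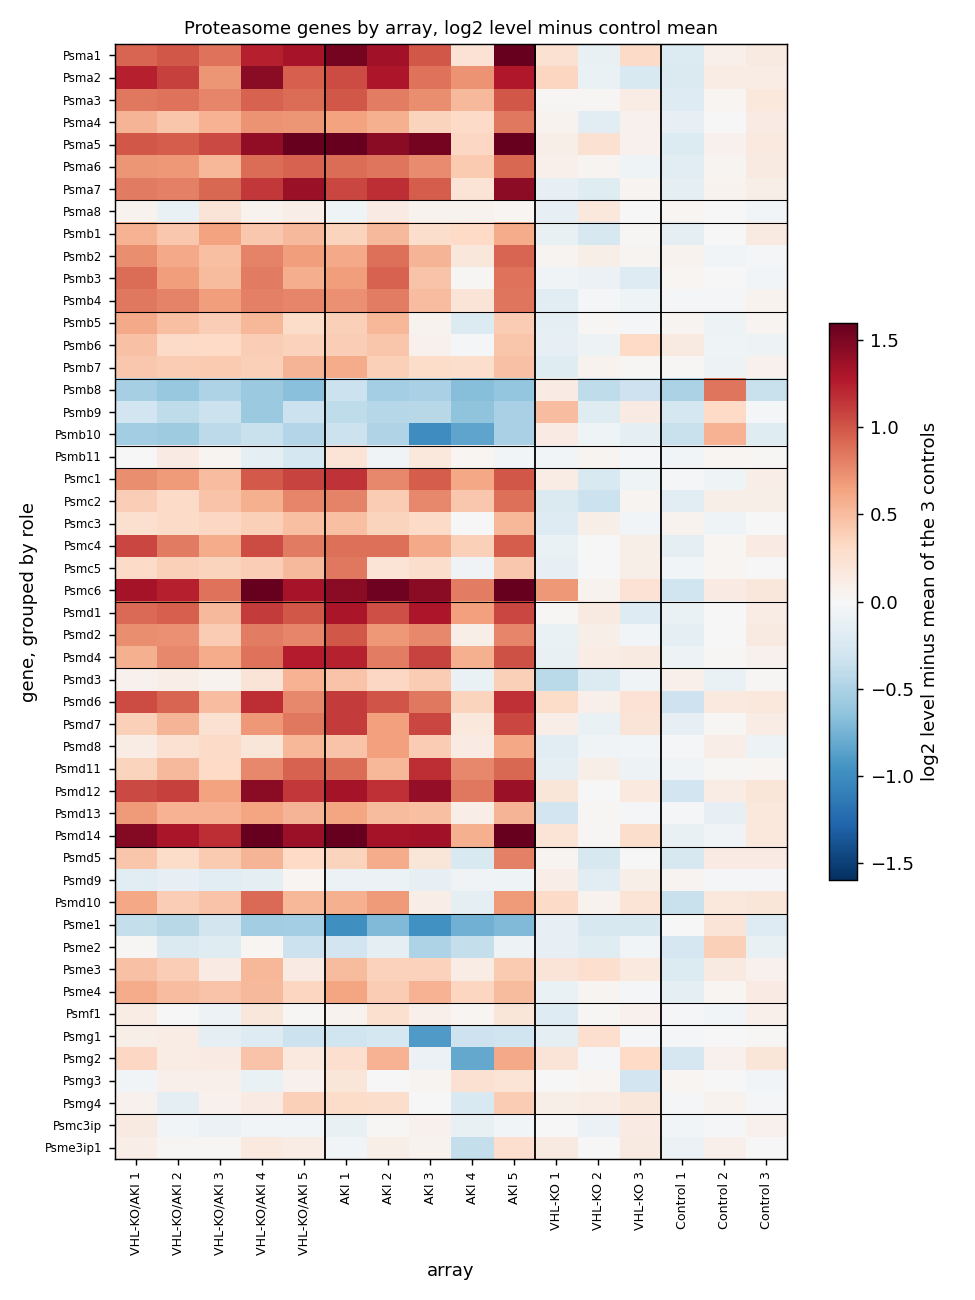
Log2 level of each of the 50 members minus the mean of the 3 Control arrays, in colour, with 1 row per gene grouped by role and 1 column per array. Rows of the alpha ring, ATPases, base and lid are mostly red across the 10 injured arrays and mostly palest in AKI 4, and the 3 immunoproteasome rows and Psme1 are blue there.

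In the core, the alpha ring, which forms the gate of the barrel, rose as a whole: 7 of 7 subunits rose in AKI against Control (median 0.97) and 7 of 7 in VHL-KO/AKI against VHL-KO (median 0.93). Psma5 read 9.43, 9.14, 9.22, 8.03 and 9.36 in AKI kidneys, against 7.48, 7.76 and 7.85 in Control kidneys, a log2 difference of 1.34 (standard error 0.25, adjusted p = 0.00125). Psma5 read 8.69, 8.67, 8.74, 9.11 and 9.33 in VHL-KO/AKI kidneys, against 7.79, 7.93 and 7.77 in VHL-KO kidneys, a difference of 1.08 (standard error 0.25, adjusted p = 0.0112). The groups did not overlap in either comparison, but AKI 4 stood only just above the highest control.

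Psma1 read 11.14, 10.95, 10.59, 9.83 and 11.31 in AKI kidneys, against 9.38, 9.68 and 9.75 in Control kidneys, a difference of 1.16 (standard error 0.25, adjusted p = 0.00301). It read 10.53, 10.59, 10.47, 10.85 and 10.92 in VHL-KO/AKI kidneys, against 9.85, 9.49 and 9.91 in VHL-KO kidneys, a difference of 0.93 (standard error 0.25, adjusted p = 0.0236). All injured arrays of each comparison lay above the uninjured ones, with AKI 4 again close to the controls, but the call in VHL-KO/AKI against VHL-KO was lost without any 1 of the VHL-KO arrays and without VHL-KO/AKI 4 or 5. Psma2 read 9.81, 10.06, 9.64, 9.49 and 10.06 in AKI kidneys, against 8.54, 8.90 and 8.89 in Control kidneys, a difference of 1.04 (standard error 0.18, adjusted p = 0.000646). Psma2 read 10.02, 9.87, 9.48, 10.22 and 9.72 in VHL-KO/AKI kidneys, against 9.12, 8.67 and 8.53 in VHL-KO kidneys, a difference of 1.09 (standard error 0.18, adjusted p = 0.00132). Here AKI 4 was less far from its group, and the groups did not overlap. Psma7 read 9.15, 9.26, 9.05, 8.30 and 9.51 in AKI kidneys, against 7.93, 8.14 and 8.18 in Control kidneys, a difference of 0.97 (standard error 0.21, adjusted p = 0.0026). Psma7 read 8.91, 8.89, 9.01, 9.22 and 9.47 in VHL-KO/AKI kidneys, against 7.96, 7.89 and 8.12 in VHL-KO kidneys, a difference of 1.11 (standard error 0.21, adjusted p = 0.0027). The smallest rise of the ring in AKI was that of Psma4, with a difference of 0.54 (standard error 0.11, adjusted p = 0.00251), and Psma3 and Psma6 rose by 0.82 and 0.77 on the log2 scale. Psma8, the testis form that replaces an alpha subunit in germ cells, stayed between 4.05 and 4.39 in all 16 arrays, with differences of 0.04 and 0.05 in the pair of injury comparisons, neither called.

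The 4 beta subunits without a cutting site (Psmb1, Psmb2, Psmb3 and Psmb4) all rose in both injury comparisons, with medians of 0.61 in AKI and 0.72 in VHL-KO/AKI. Psmb2 had the largest difference of them in AKI against Control, 0.63 (standard error 0.13, adjusted p = 0.00213), and Psmb1 the smallest, 0.41 (standard error 0.09, adjusted p = 0.00309). Psmb4 read 11.66, 11.61, 11.48, 11.62 and 11.59 in VHL-KO/AKI kidneys, against 10.62, 10.79 and 10.74 in VHL-KO kidneys, a difference of 0.87 (standard error 0.12, adjusted p = 0.000266). Its VHL-KO/AKI arrays lay close together and far above the VHL-KO arrays.

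The 3 constitutive catalytic subunits had differences below the median of the 31 in both injury comparisons. Psmb5, which cuts after hydrophobic residues, read 11.66, 11.81, 11.34, 11.06 and 11.68 in AKI kidneys, against 11.32, 11.19 and 11.32 in Control kidneys, a difference of 0.23 (standard error 0.13, adjusted p = 0.228). AKI 4 lay below all 3 controls and the groups overlapped. Psmb5 read 11.88, 11.75, 11.67, 11.81 and 11.57 in VHL-KO/AKI kidneys, against 11.13, 11.29 and 11.26 in VHL-KO kidneys, a difference of 0.51 (standard error 0.13, adjusted p = 0.0208), and the groups did not overlap. Psmb6, which cuts after acidic residues, read 10.14, 10.19, 9.81, 9.72 and 10.19 in AKI kidneys, against 9.89, 9.68 and 9.67 in Control kidneys, a difference of 0.27 (standard error 0.12, adjusted p = 0.125). Its VHL-KO/AKI arrays read 10.21, 10.05, 10.06, 10.14 and 10.11, against 9.62, 9.67 and 10.06 in VHL-KO kidneys, a difference of 0.33 (standard error 0.12, adjusted p = 0.0908). The groups overlapped in both comparisons and neither difference was called. Psmb7, which cuts after basic residues, read 10.10, 9.88, 9.80, 9.79 and 9.98 in AKI kidneys, against 9.52, 9.42 and 9.57 in Control kidneys, a difference of 0.40 (standard error 0.08, adjusted p = 0.00161). Psmb7 read 9.93, 9.91, 9.93, 9.88 and 10.05 in VHL-KO/AKI kidneys, against 9.32, 9.56 and 9.52 in VHL-KO kidneys, a difference of 0.48 (standard error 0.08, adjusted p = 0.00136). Psmb7 thus rose in both comparisons without overlap, by less than the median constitutive subunit. Whether the catalytic subunits differed from the other subunits was not tested. Without AKI 4, Psmb5 and Psmb6 were also called in AKI against Control, and Psmb6 in VHL-KO/AKI against VHL-KO. Without VHL-KO 3 Psmb6 was called there too, and the Psmb5 call was lost without VHL-KO 1 or VHL-KO 3.

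**Figure D2:**
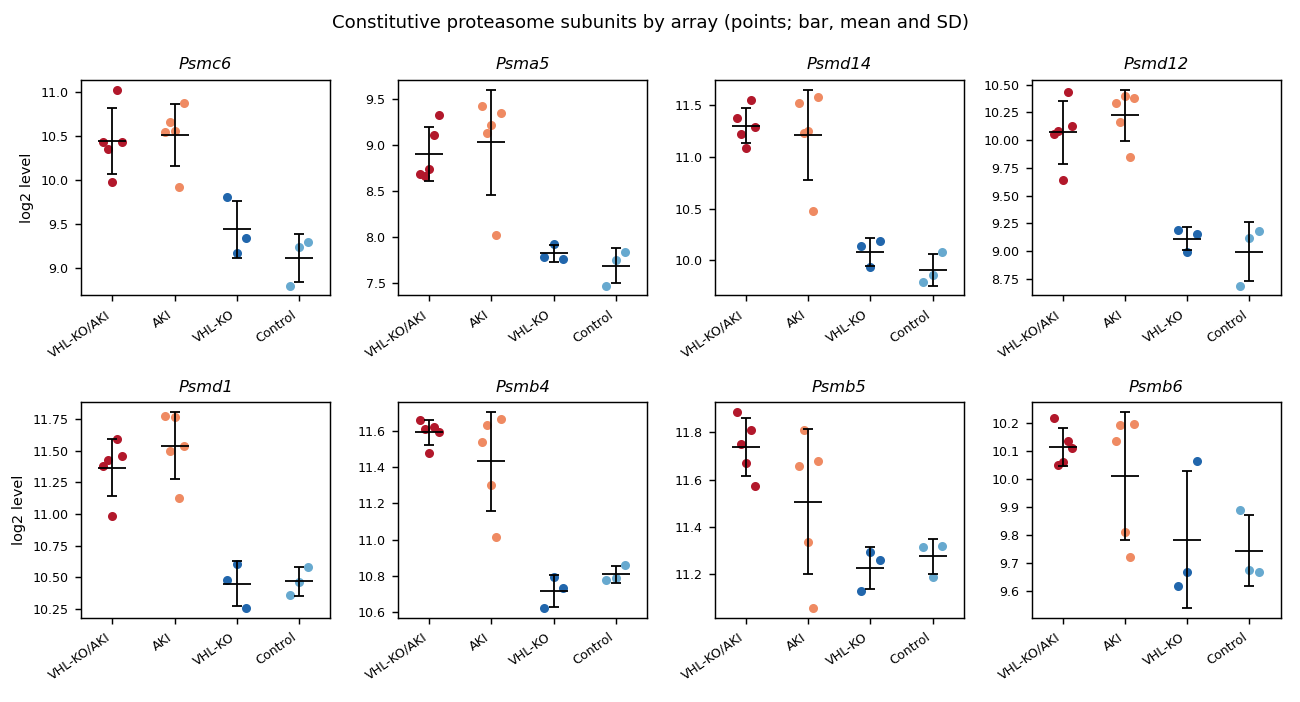
Log2 level of 8 constitutive subunits in each array (points), with the group mean and SD (bars), for VHL-KO/AKI, AKI, VHL-KO and Control kidneys from left to right; each panel has its own axis, which does not start at 0. In Psmc6, Psma5, Psmd14, Psmd12, Psmd1 and Psmb4 every injured array lies above every uninjured one, whereas in Psmb5 and Psmb6 at least 1 injured array does not lie above every uninjured one.

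In the cap, 15 of 17 subunits rose in each injury comparison, with medians of 0.81 in AKI against Control and 0.70 in VHL-KO/AKI against VHL-KO. Of the 6 ATPases, which unfold substrates and thread them into the core, 5 rose in each. Psmc6 read 10.55, 10.67, 10.55, 9.92 and 10.87 in AKI kidneys, against 8.79, 9.24 and 9.29 in Control kidneys, a difference of 1.40 (standard error 0.23, adjusted p = 0.000446), or 2.65-fold. Psmc6 read 10.44, 10.35, 9.98, 11.03 and 10.43 in VHL-KO/AKI kidneys, against 9.80, 9.17 and 9.33 in VHL-KO kidneys, a difference of 1.01 (standard error 0.23, adjusted p = 0.00937). The groups did not overlap, and VHL-KO 1, the highest uninjured array, came close to the lowest VHL-KO/AKI array, while the call was lost without VHL-KO 2. The smallest differences among the ATPases in AKI were those of Psmc3, 0.33 (standard error 0.10, adjusted p = 0.0277), and Psmc5, 0.34 (standard error 0.14, adjusted p = 0.0802), which was not called in either injury comparison. The Psmc3 call was lost without AKI 1, AKI 5 or any 1 of the controls, and its call in VHL-KO/AKI against VHL-KO without VHL-KO 1 or VHL-KO 3. In VHL-KO/AKI the Psmc5 difference was 0.41 (standard error 0.14, adjusted p = 0.0651), and all 5 of its VHL-KO/AKI arrays lay above the 3 VHL-KO arrays.

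All 3 subunits of the base without ATPase activity rose in both comparisons. Psmd1, a scaffold of the base, read 11.77, 11.50, 11.77, 11.12 and 11.54 in AKI kidneys, against 10.36, 10.46 and 10.58 in Control kidneys, a difference of 1.07 (standard error 0.15, adjusted p = 0.000138). Psmd1 read 11.38, 11.42, 10.99, 11.59 and 11.46 in VHL-KO/AKI kidneys, against 10.48, 10.61 and 10.26 in VHL-KO kidneys, a difference of 0.92 (standard error 0.15, adjusted p = 0.00117). Injured and uninjured arrays of each pair were far apart. Psmd4, a receptor for ubiquitin chains, differed by 0.94 (standard error 0.16, adjusted p = 0.000446) in AKI against Control, and Psmd2, the other scaffold, by 0.67 (standard error 0.16, adjusted p = 0.00485). AKI 4 lay below the highest control in Psmd2, where the groups overlapped.

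Of the 8 lid subunits 7 rose in each injury comparison. Some calls in VHL-KO/AKI against VHL-KO hung on single arrays. The Psmd6 call was lost without any 1 of the VHL-KO arrays or VHL-KO/AKI 4, and the Psmd11 call without VHL-KO 1. The Psmd8 call was lost without any 1 of the VHL-KO arrays or VHL-KO/AKI 2, 3, 4 or 5, and under quantile or cyclic loess scaling. Psmd14, the enzyme of the lid that cuts ubiquitin chains from the substrate, read 11.52, 11.24, 11.25, 10.48 and 11.58 in AKI kidneys, against 9.79, 9.86 and 10.08 in Control kidneys, a difference of 1.30 (standard error 0.19, adjusted p = 0.000206), or 2.46-fold. Psmd14 read 11.38, 11.22, 11.09, 11.55 and 11.29 in VHL-KO/AKI kidneys, against 10.13, 9.93 and 10.19 in VHL-KO kidneys, a difference of 1.22 (standard error 0.19, adjusted p = 0.000905), or 2.33-fold. Psmd14 had the highest difference of all members in VHL-KO/AKI against VHL-KO, and its groups did not overlap. Psmd12, a structural subunit of the lid, read 10.33, 10.16, 10.40, 9.85 and 10.38 in AKI kidneys, against 8.69, 9.12 and 9.19 in Control kidneys, a difference of 1.23 (standard error 0.16, adjusted p = 0.000103). Psmd12 read 10.06, 10.09, 9.64, 10.44 and 10.13 in VHL-KO/AKI kidneys, against 9.19, 9.0 and 9.15 in VHL-KO kidneys, a difference of 0.96 (standard error 0.16, adjusted p = 0.0016). Even AKI 4 and VHL-KO/AKI 3, the lowest injured arrays, lay above every uninjured array. Psmd3, another structural subunit, had the smallest lid difference in AKI, 0.29 (standard error 0.14, adjusted p = 0.124), and its AKI and Control arrays overlapped through AKI 4. It was called in VHL-KO/AKI, with a difference of 0.43 (standard error 0.14, adjusted p = 0.0461), a call lost when any 1 of VHL-KO/AKI 2, 4 and 5, AKI 2, 3 and 5, the VHL-KO arrays or the controls was left out. Psmd7 was called in AKI, 0.81 (standard error 0.19, adjusted p = 0.00503), and not in VHL-KO/AKI, 0.47 (standard error 0.19, adjusted p = 0.124).

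None of the 7 assembly chaperones among the members was called higher in either injury comparison. Pomp, the maturation protein of the core, lies outside the symbol rule and rose in AKI, as described below. Of the 3 chaperones of the base 0 were called in either injury comparison (0 at an unadjusted p under 0.05 in AKI and 1 in VHL-KO/AKI). In 2 of the 3, Psmd5 and Psmd10, all VHL-KO/AKI arrays lay above all VHL-KO arrays (differences 0.47 and 0.39), against 9.42% of all genes. Psmd10 had the largest difference in AKI, 0.38 (standard error 0.19, adjusted p = 0.156), and Psmd9 the smallest, -0.09 (standard error 0.07, adjusted p = 0.378). Of the 4 chaperones of the core, Psmg1 fell in AKI and the other 3 were not called. Psmg1 read 7.63, 7.67, 7.05, 7.62 and 7.63 in AKI kidneys, against 7.93, 7.96 and 7.96 in Control kidneys, a difference of -0.43 (standard error 0.14, adjusted p = 0.0355). The groups did not overlap, and AKI 3 lay far below the other AKI arrays. The call was lost without AKI 3 and without any 1 of the controls. Psmg1 read 8.05, 8.07, 7.80, 7.75 and 7.61 in VHL-KO/AKI kidneys, against 7.80, 8.22 and 7.94 in VHL-KO kidneys, a difference of -0.13 (standard error 0.14, adjusted p = 0.627), with overlap. Psmg2 had the smallest difference of the core chaperones in AKI, 0.10 (standard error 0.25, adjusted p = 0.807), and its AKI arrays ran from 7.24 to 8.65, against 7.79 to 8.25 in Control arrays. Psmb11, the thymus form of a catalytic subunit, stayed between 4.44 and 4.94 in all 16 arrays.

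The 3 immunoproteasome subunits had negative differences in both injury comparisons. In AKI against Control 2 of 3 fell and in VHL-KO/AKI against VHL-KO 1 of 3, with medians of -0.54 and -0.45. Their means over 16 arrays were 5.28 (Psmb8), 6.19 (Psmb9) and 6.70 (Psmb10), above those of 37.7%, 49.7% and 55.3% of genes. The Psmb8 mean lay below every array median (5.92 to 6.03), which leaves little room for lower readings. Psmb9, the inducible partner of Psmb6, read 6.04, 5.99, 6.0, 5.80 and 5.93 in AKI kidneys, against 6.16, 6.76 and 6.41 in Control kidneys, a difference of -0.49 (standard error 0.14, adjusted p = 0.0171). Psmb9 read 6.13, 6.04, 6.10, 5.85 and 6.10 in VHL-KO/AKI kidneys, against 6.94, 6.25 and 6.57 in VHL-KO kidneys, a difference of -0.54 (standard error 0.14, adjusted p = 0.0203). Psmb9 was called in both comparisons, with no overlap between the groups of either, but its call was lost without Control 2 in the AKI comparison and without VHL-KO 1 or VHL-KO 3 in the other. Psmb10, the inducible partner of Psmb7, read 6.71, 6.56, 6.05, 6.21 and 6.54 in AKI kidneys, against 6.69, 7.61 and 6.85 in Control kidneys, a difference of -0.64 (standard error 0.18, adjusted p = 0.0154). Psmb10 read 6.49, 6.49, 6.64, 6.69 and 6.58 in VHL-KO/AKI kidneys, against 7.19, 6.98 and 6.90 in VHL-KO kidneys, a difference of -0.45 (standard error 0.18, adjusted p = 0.119). AKI 1 lay just above the lowest control, the call in AKI was lost without Control 2, and the VHL-KO/AKI and VHL-KO arrays did not overlap. Psmb8, the inducible partner of Psmb5, read 5.32, 5.13, 5.14, 4.98 and 5.05 in AKI kidneys, against 5.16, 6.53 and 5.31 in Control kidneys, a difference of -0.54 (standard error 0.23, adjusted p = 0.0896). Psmb8 read 5.13, 5.07, 5.17, 5.07 and 5.0 in VHL-KO/AKI kidneys, against 5.80, 5.26 and 5.34 in VHL-KO kidneys, a difference of -0.38 (standard error 0.23, adjusted p = 0.31). Control 2 stood far above the other controls in Psmb8, and neither difference was called, though the AKI one was without Control 1 and the VHL-KO/AKI one without Control 2.

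Control 2 and VHL-KO 1, the uninjured arrays highest in these subunits, were also highest in some immune cell markers. The mean over the 3 subunits was highest in Control 2 (6.97) and VHL-KO 1 (6.64), against 5.86 to 5.97 in VHL-KO/AKI arrays and 5.67 to 6.03 in AKI arrays, and 6.0 to 6.27 in the remaining uninjured arrays. The same arrays had the highest means over the 6 genes of the MHC class II list (9.49 and 9.24) and over 5 leukocyte genes (7.52 and 7.99). That list holds Cd74, H2-Ab1, H2-Aa and H2-Eb1, with Itgax and Flt3, which are not MHC class II genes. In AKI against Control 4 of the 6 genes of the MHC class II list fell and 0 were called higher, with a median of -1.78. Of these 6 genes 2 had a difference above 0 (highest 0.29). Of the 5 leukocyte genes 0 were called (0 at an unadjusted p under 0.05). The mean of the MHC class II list was 7.21 to 8.07 in VHL-KO/AKI and 7.06 to 8.03 in AKI arrays, against 8.45 to 9.24 in VHL-KO and 8.42 to 9.49 in Control arrays. The leukocyte mean was 6.65 to 6.98 in VHL-KO/AKI and 6.58 to 7.46 in AKI arrays, against 6.91 to 7.99 in VHL-KO and 6.69 to 7.52 in Control arrays. The mean over 7 lymphocyte genes was also highest in Control 2 (5.11) and VHL-KO 1 (5.78), against 4.87 to 4.98 in the other uninjured arrays. It was 4.62 to 4.76 in VHL-KO/AKI and 4.655 to 4.805 in AKI arrays. In each injury comparison 1 of these 7 genes fell, against 14.9% of all genes in AKI and 8.91% in VHL-KO/AKI. Other immune values went another way in part. The macrophage mean was likewise highest among uninjured arrays in Control 2 (7.40) and VHL-KO 1 (7.56). Yet it was 7.22 to 7.62 in VHL-KO/AKI and 6.87 to 7.53 in AKI arrays. AKI 1 had a leukocyte mean of 7.46 with 6.03 over the 3 subunits. The neutrophil mean of Control 2, 4.61, was below that of Control 1, 4.74. The part of these cells in the lower immunoproteasome values was not tested. Without Control 2 the lower calls among the 50 members in AKI against Control came to 1 (Psme1), beside 28 higher calls, against 11.6% and 10.6% of all genes. In VHL-KO/AKI against VHL-KO the lower calls without Control 2, which enters there only through the shared estimate of spread, came to 3 (Psmb8, Psmb9 and Psmb10), against 8.5% of all genes.

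**Figure D3:**
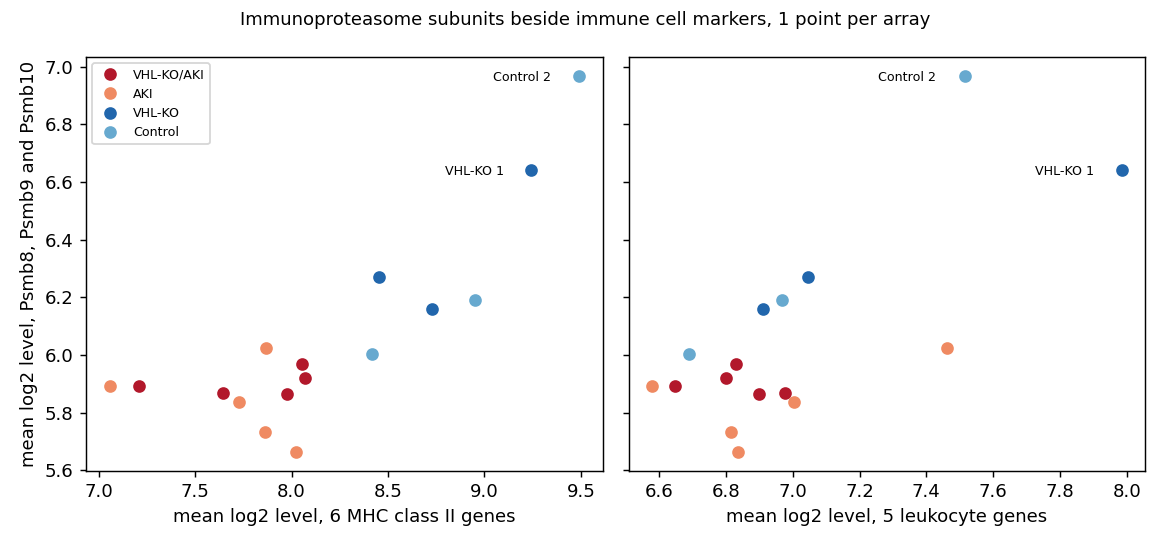
Mean log2 level of Psmb8, Psmb9 and Psmb10 (vertical) against the mean log2 level of the 6 genes of the MHC class II list, which includes Itgax and Flt3 (left panel), and of 5 leukocyte genes (right panel), 1 point per array, with no axis starting at 0. Control 2 and VHL-KO 1 lie at the top right of both panels, and the injured arrays lie at or below 6.03 on the vertical axis.

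Of 11 measured genes of class I antigen presentation, which uses the peptides that the proteasome makes, 1 fell in AKI against Control and 0 rose. It was Tapbp, a chaperone of peptide loading, with a difference of -0.54 (adjusted p = 0.0415). Tap1, the peptide transporter, whose gene lies beside Psmb9, differed by -0.60 (adjusted p = 0.11). Irf1, a transcription factor of the interferon response, was the 1 of 11 that fell in VHL-KO/AKI against VHL-KO, with a difference of -0.47 (adjusted p = 0.0362). Tap1 differed by -0.83 (adjusted p = 0.0535) there.

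The activators, rings that open the gate of the core without the cap, split. Psme1, 1 of the 2 chains of the interferon-inducible activator, fell in AKI. It read 8.46, 8.73, 8.47, 8.67 and 8.73 in AKI kidneys, against 9.43, 9.65 and 9.24 in Control kidneys, a difference of -0.82 (standard error 0.10, adjusted p = 4.31e-05), or 1.77-fold lower. All AKI arrays lay well below the lowest control. Psme1 read 9.05, 8.99, 9.14, 8.88 and 8.89 in VHL-KO/AKI kidneys, against 9.30, 9.18 and 9.17 in VHL-KO kidneys, a difference of -0.23 (standard error 0.10, adjusted p = 0.143). These groups did not overlap either, but the difference was not called. Psme2, its partner in the same ring, read 9.15, 9.31, 8.96, 9.08 and 9.37 in AKI kidneys, against 9.19, 9.84 and 9.34 in Control kidneys, a difference of -0.28 (standard error 0.14, adjusted p = 0.138), with overlap. Psme2 read 9.47, 9.23, 9.26, 9.48 and 9.11 in VHL-KO/AKI kidneys, against 9.33, 9.26 and 9.41 in VHL-KO kidneys, a difference of -0.02 (standard error 0.14, adjusted p = 0.949). A probe row that names both Psme2 and the near-identical Psme2b was left out, and cross-hybridisation of the pair was not tested.

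Psme4, the large activator known from DNA repair and spermatogenesis, rose in both comparisons. It read 11.39, 11.16, 11.32, 11.10 and 11.27 in AKI kidneys, against 10.60, 10.79 and 10.89 in Control kidneys, a difference of 0.49 (standard error 0.08, adjusted p = 0.000516). Psme4 read 11.35, 11.25, 11.21, 11.28 and 11.10 in VHL-KO/AKI kidneys, against 10.65, 10.81 and 10.73 in VHL-KO kidneys, a difference of 0.51 (standard error 0.08, adjusted p = 0.00107). Neither pair of groups overlapped. Psme3, the nuclear activator, read 11.02, 10.89, 10.88, 10.63 and 10.94 in AKI kidneys, against 10.30, 10.66 and 10.59 in Control kidneys, a difference of 0.35 (standard error 0.11, adjusted p = 0.0291). Psme3 read 10.99, 10.91, 10.65, 11.05 and 10.64 in VHL-KO/AKI kidneys, against 10.73, 10.79 and 10.67 in VHL-KO kidneys, a difference of 0.12 (standard error 0.11, adjusted p = 0.552). Arrays overlapped in both comparisons and only the rise in AKI was called, which was lost without AKI 1, AKI 3, AKI 5 or Control 1. The inhibitor Psmf1 read 9.72, 9.92, 9.75, 9.69 and 9.86 in AKI kidneys, against 9.63, 9.62 and 9.75 in Control kidneys, a difference of 0.12 (standard error 0.08, adjusted p = 0.286). Psmf1 read 9.78, 9.65, 9.59, 9.85 and 9.69 in VHL-KO/AKI kidneys, against 9.46, 9.68 and 9.74 in VHL-KO kidneys, a difference of 0.08 (standard error 0.08, adjusted p = 0.552). Psmf1 overlapped throughout and was not called.

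**Figure D4:**
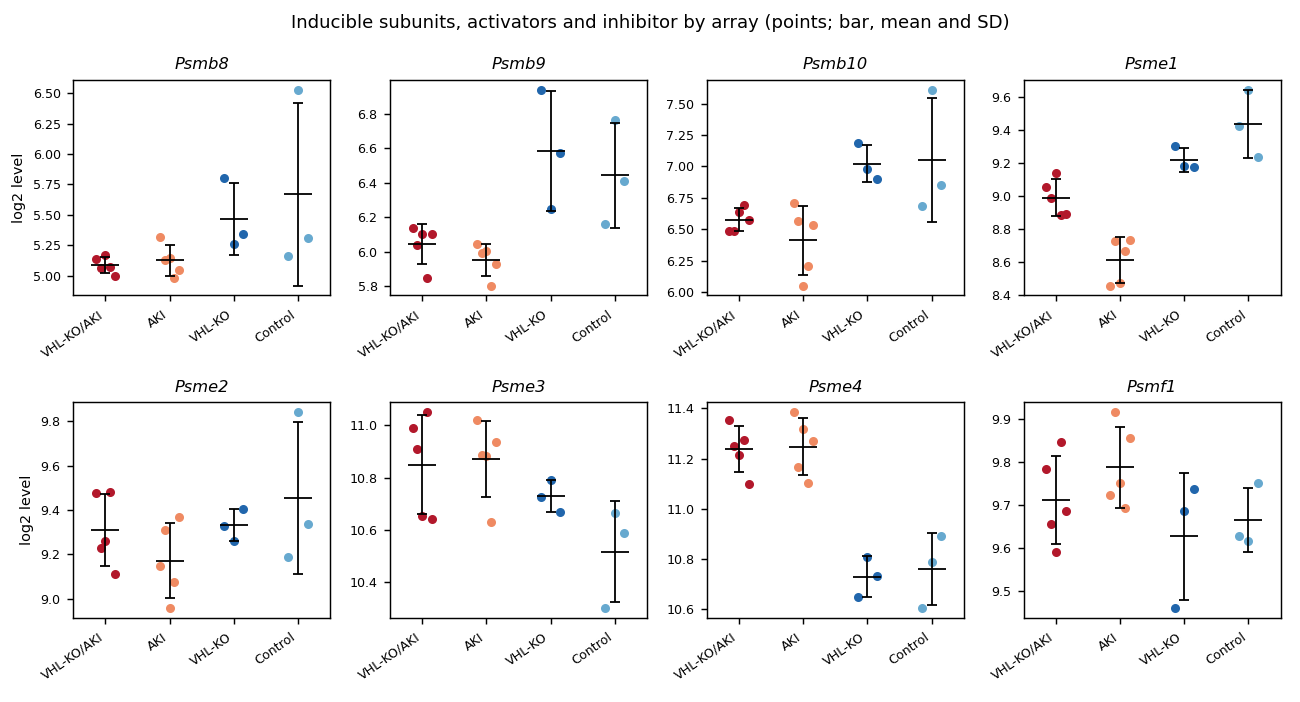
Log2 level of the 3 immunoproteasome subunits, the 4 activators and the inhibitor Psmf1 in each array (points), with the group mean and SD (bars), for VHL-KO/AKI, AKI, VHL-KO and Control kidneys from left to right; each panel has its own axis, which does not start at 0. Psme1 falls into separate ranges in VHL-KO/AKI (8.88 to 9.14), AKI (8.46 to 8.73), and the uninjured arrays (9.17 to 9.65), and 1 control array stands high in Psmb8 and Psmb10.

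The pair of injury comparisons called largely overlapping members. They share no arrays, but the groups were fitted together, so both use the same estimate of spread for each gene. Of the 29 members that rose in each, 27 were shared (93.1% of each list). Over all genes 2632 and 929 were called higher, and how many of these were shared was not counted. Psmd7 and Psme3 were called higher in the AKI comparison and not in the other, and Psmb5 and Psmd3 in the VHL-KO/AKI comparison and not in the first. Psmb9 was called lower in both, out of 4 and 1. The same 8 members had the largest rises in both: Psmc6, Psma5, Psmd14, Psmd12, Psma1, Psmd1, Psma2 and Psma7. Across the 50 members the differences of the comparisons correlated with r = 0.94, across the 31 constitutive subunits with r = 0.85 and across all 19938 genes with r = 0.82. Genes are not independent replicates, and both comparisons carry the sex-linked signal described above.

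**Figure D5:**
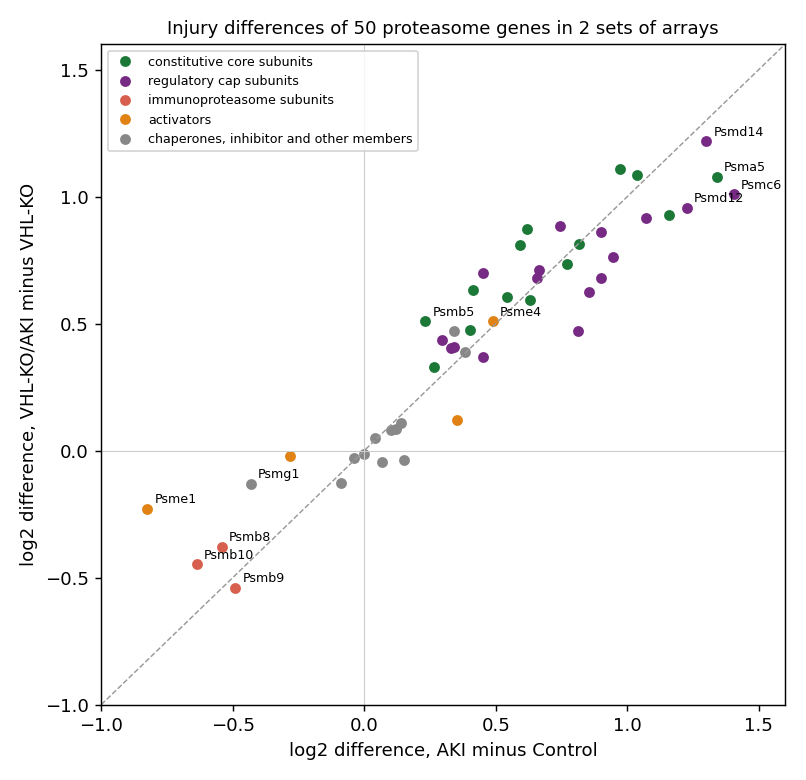
Log2 difference of each of the 50 members in VHL-KO/AKI against VHL-KO kidneys (vertical) and in AKI against Control kidneys (horizontal), coloured by role, with the line of equal differences dashed. Core and cap subunits lie between 0.23 and 1.40 on the horizontal axis, the 3 immunoproteasome subunits lie below 0 on both axes, and Psme1 lies above the line.

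Knockout without injury was not accompanied by a detectable change in any proteasome gene. In VHL-KO against Control 0 of 50 members were called by limma, while 0.527% of all genes were called in either direction. An unadjusted p under 0.05 was held by 0 members and by 1664 of 19938 genes. The median difference was -0.01 over the 50 members and 0.02 over all genes. Differences ran from -0.23 in Psmd3 (95% interval -0.56 to 0.09) to 0.33 in Psmc6 (95% interval -0.22 to 0.88). The highest Psmc6 value was that of VHL-KO 1, which read 9.80, against 8.79 to 9.29 in Control arrays. Over the 31 constitutive subunits the intervals reached from -0.58 to 0.88, with a median half-width of 0.33, which limits what 3 arrays in each group can detect. In simulated data of this comparison the test recovered 92.5% of changes of 1 and 49.3% of changes of 0.5 on the log2 scale. The changed genes were drawn from all genes with independent noise, so these shares are not those of the proteasome genes, whose recovery was not simulated.

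The catalytic subunits differed in VHL-KO against Control by -0.05 (Psmb5), 0.04 (Psmb6) and -0.04 (Psmb7), and the inducible ones by -0.20 (Psmb8), 0.14 (Psmb9) and -0.03 (Psmb10). Among the activators the differences were -0.22 for Psme1, -0.12 for Psme2, 0.21 for Psme3 and -0.03 for Psme4, and for the inhibitor Psmf1 -0.04. Adjusted p in this group of 11 ran from 0.637 to 0.99.

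Within injured kidneys the knockout was accompanied by a higher level of 1 member. In VHL-KO/AKI against AKI 1 of 50 members was called, against 3.88% of all genes in either direction. An unadjusted p under 0.05 (limma) was held by 3 members (Psme1, Psmd11 and Psmg1), against 3734 of 19938 genes, a larger share. Psme1 read 9.05, 8.99, 9.14, 8.88 and 8.89 in VHL-KO/AKI kidneys, against 8.46, 8.73, 8.47, 8.67 and 8.73 in AKI kidneys, a difference of 0.38 (standard error 0.08, adjusted p = 0.0263), or 1.3-fold. All 5 VHL-KO/AKI arrays lay above all 5 AKI arrays. Over 32 settings of the analysis, the main fit included, the adjusted p of Psme1 ran from 0.00655 to 0.081 and was under 0.05 in 26. Among the 26, the settings with a threshold of 0.01 or with 1.5-fold repeat the main value and did not call Psme1. The adjusted p was 0.0519 with only these groups fitted, and it was above 0.05 when VHL-KO/AKI 1, VHL-KO/AKI 2, VHL-KO/AKI 3, AKI 1 or AKI 3 was left out (0.0555 to 0.081). Psmd11, a lid subunit, differed by -0.27 (standard error 0.13, adjusted p = 0.258), and Psmg1 by 0.34 (standard error 0.12, adjusted p = 0.154). Over the 50 members the median was 0.02, against -0.01 over all genes.

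No difference in a constitutive subunit passed the test in this comparison. Of the 31, 0 were called and 1 had an unadjusted p under 0.05, the median difference was 0.02, and the 95% intervals reached from -0.63 to 0.48 with a median half-width of 0.25. Psmb5 differed by 0.23 (standard error 0.12, adjusted p = 0.312), Psmb6 by 0.10 and Psmb7 by 0.03. The inducible subunits differed by -0.04 (Psmb8), 0.09 (Psmb9) and 0.16 (Psmb10). Among the other activators the differences were 0.14 for Psme2, -0.02 for Psme3 and -0.01 for Psme4, and for the inhibitor Psmf1 -0.08. None of these 10 was called, and their adjusted p ran from 0.312 to 0.966. AKI 4 weighed on the comparison: without it, Psmd7 was also called, lower in VHL-KO/AKI, beside Psme1, so that 2 of 50 members were called against 12.0% of all genes. Cell type markers differed as well. Of 5 neutrophil markers 2 were lower in VHL-KO/AKI kidneys (median -0.85), and of 4 thick ascending limb markers 1 was higher (median 1.20). Of 8 macrophage markers 0 were called, with 7 of 8 differences above 0, a median of 0.32 and 3 at an unadjusted p under 0.05. The macrophage mean was 7.22 to 7.62 in VHL-KO/AKI arrays, against 6.87 to 7.53 in AKI arrays. Their part in the Psme1 difference was not tested.

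The interaction subtracts the VHL-KO against Control difference from the VHL-KO/AKI against AKI difference. It called 0 of 50 members, against 0.01% of all genes in either direction (1 member and 2387 of 19938 genes at an unadjusted p under 0.05). Psme1 had the largest of the 50, 0.60 (standard error 0.14, adjusted p = 0.121), with a knockout difference of 0.38 in injured and -0.22 in uninjured kidneys. It was called without AKI 4 and with array weights, settings that also called 3.11% and 4.44% of all genes, but not with all arrays weighted equally. The interaction was 0.28 for Psmb5, 0.16 for Psmb8, -0.05 for Psmb9 and 0.19 for Psmb10. Over the 31 constitutive subunits its median was 0.02 and the 95% intervals reached from -1.09 to 0.76.

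Of 10 measured partners of the proteasome outside the symbol rule, 7 rose in AKI against Control and 3 in VHL-KO/AKI against VHL-KO, and 0 fell in either. The medians were 0.56 and 0.29. The interaction was below 0 in 9 of the 10 and called in 0 (3 at an unadjusted p under 0.05, limma). Zfand2a, which binds the cap under arsenite stress, had the largest difference in AKI, 1.68 (adjusted p = 5.97e-05). Usp14, a deubiquitinase of the cap, differed by 1.32 (adjusted p = 0.000169), Zfand5, which binds the cap in wasting muscle, by 1.20 (adjusted p = 0.000743), and Txnl1, a redox protein of the cap, by 0.94 (adjusted p = 4.67e-05). Pomp, the maturation protein of the core, rose by 0.67 (adjusted p = 0.00414). The 3 that rose in VHL-KO/AKI against VHL-KO were Usp14, 0.94 (adjusted p = 0.00448), Zfand2a, 0.91 (adjusted p = 0.00953), and Txnl1, 0.79 (adjusted p = 0.000432). Akirin2, which brings proteasomes into the nucleus, was lower in VHL-KO/AKI than in AKI kidneys, with a difference of -0.31 (adjusted p = 0.029), the only one of the 10 called there.

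Shuttles that carry ubiquitinated proteins to the cap, and the segregase Vcp with its cofactors, also rose: 8 of 9 measured in AKI against Control and 6 of 9 in VHL-KO/AKI against VHL-KO. In AKI the largest were Rad23b, 0.90 (adjusted p = 2.58e-05), Ufd1, 0.89 (adjusted p = 0.000275), Vcp, 0.78 (adjusted p = 0.00127), and Nploc4, 0.73 (adjusted p = 0.000368). In VHL-KO/AKI the largest were Vcp, 0.80 (adjusted p = 0.00259), Rad23b, 0.75 (adjusted p = 0.000266), Nploc4, 0.53 (adjusted p = 0.00707), and Ubqln1, 0.53 (adjusted p = 0.000246). None of the 9 was called in VHL-KO/AKI against AKI (5 had an unadjusted p under 0.05, all of them lower). The ubiquitin and E1 list had 1 measured gene of 6, Uba6, which differed by 0.57 (adjusted p = 0.21) in AKI.

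Of the 8 transcription factors and processing enzymes known to govern subunit genes, 2 rose and 1 fell in AKI against Control. Maff and Mafk, small partners of the Nfe2 family, differed by 2.58 (adjusted p = 6.38e-05) and 1.05 (adjusted p = 0.00278). Nfe2l1 was lower, -0.27 (adjusted p = 0.0156), and Nfe2l2 was not called, 0.39 (adjusted p = 0.128). Maff rose in VHL-KO/AKI against VHL-KO, 1.07 (adjusted p = 0.039), and Nfe2l1 fell, -0.33 (adjusted p = 0.0103). In VHL-KO/AKI against AKI Maff was lower, -1.06 (adjusted p = 0.0496), and Keap1, which holds Nfe2l2 in check, was higher, 0.39 (adjusted p = 0.0498). Nfe2l1 and Nfe2l2 are known to be controlled largely at the protein level, which these arrays do not measure.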

How the data were processed

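RNA of 16 mouse kidneys was measured on single-colour arrays. The authors deposited log2 levels per probe row, made with RMA and Partek 6.4 per the submitters' processing notes; the genome build of the arrays is not given in the sources used here. Of 35556 rows, 21789 named 1 gene and gave 19938 genes, each by its row with the highest mean. Array medians lay between 5.92 and 6.03 and values between 3.34 and 14.71, and no further scaling was applied. Groups came from the titles, whose replicates are labelled biological, and the number of arrays limits the precision.

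The 4 groups were fitted together with limma 3.58.1 in R 4.3.3 (12 residual and 2.83 prior degrees of freedom), with calls made where the adjusted p (Benjamini-Hochberg, all genes) was under 0.05. Differences are on the log2 scale, the first group minus the second. In simulated data with 200 changed genes drawn from all genes, 92.5% of log2 changes of 1 were recovered in each of the 4 comparisons between groups. Recovery was 71.6% for the interaction. Of changes of 0.5, 65.7% were recovered in AKI against Control and 61.2% in VHL-KO/AKI against VHL-KO. The simulation gave each gene the same spread in all groups and changed 200 genes, whereas 5600 were called in AKI against Control. These shares are therefore not the recovery in the real comparisons.

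All 50 symbols matched the RefSeq gene table (GRCm38.p6), which gave the promoter windows. In all 5 members with several rows the rows had 1 direction in both injury comparisons, as they did in 3 of the 5 in VHL-KO against Control and in 4 of the 5 in VHL-KO/AKI against AKI and in the interaction. Named with values are the catalytic and inducible subunits, the activators and the inhibitor, the 8 called members with the largest change in each direction per comparison, and the extremes of each role. From each list of other genes up to 4 called genes with the largest change are named, or the pair with the smallest p. Pomp, Tap1 and Nfe2l2 were named after their values were seen, as were Psma3, Psma6, Psma8, Psmb4, Psmb11, Psmc5, Psmd4, Psmd6, Psmd7, Psmd8 and Psmd11 among the members. Members, lists and tests were chosen with earlier results of these data known. Alternatives covered the row used, a filter on dim genes, scaling, variance options, array weights, the samples fitted, a replicate block, a sex-linked covariate, thresholds, each array left out, and 2 settings added after seeing the data.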

Additional observations from a re-analysis of the deposited data

Results flagged for a closer look

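Of 100 checks of a member within a group of 5 arrays, 8 had 1 array set far apart from the others, where chance alone flags about 1 in 20. AKI 4 was the lowest array in 3 of the 8. It read 8.03 for Psma5, against 9.14 to 9.43 in the other AKI arrays, 8.97 for Psmd3, against 9.40 to 9.54, and 9.47 for Psmd13, against 9.84 to 10.00. The fourth low value was that of AKI 3 in Psmg1, 7.05, against 7.62 to 7.67 in the other AKI arrays.

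In VHL-KO/AKI kidneys the low value was that of replicate 3 in Psmd2, 11.53, against 11.85 to 11.94 in the other arrays. High values stood in replicate 5 for Psmb7, 10.05, against 9.88 to 9.93, in replicate 5 for Psmd9, 6.59, against 6.38 to 6.42, and in replicate 1 for Psmc3ip, 5.04, against 4.80 to 4.86.

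The fitted knockout difference had opposite signs in injured and uninjured kidneys in 27 of the 50 members. In 2 of them every VHL-KO array lay on one side of the Control mean and every VHL-KO/AKI array on the other side of the AKI mean. Neither count was made over all genes, and differences near 0 can take either sign, so neither is a trait of these members. Psmb4 differed by 0.16 in injured and by -0.09 in uninjured kidneys, which is 0.25 in the interaction. Psme1 differed by 0.38 in injured and by -0.22 in uninjured kidneys, which is 0.60 in the interaction. Neither interaction passed an adjusted p of 0.05 in limma with all arrays weighted equally.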

How the results depend on the processing

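Counts of called members were recomputed with 1 choice changed at a time, except that 2 settings added after seeing the data left out 2 arrays together. The 33 calls in AKI against Control became 0 with the sex-linked covariate and 6 with Control 3 as the one control array (6.48% of all genes, against 28.1% in the full set), and the 30 calls in VHL-KO/AKI against VHL-KO became 0 with the covariate. In VHL-KO/AKI against AKI the 1 call became 4 with array weights (Psme1 and Psmg1 higher, Psmd7 and Psmd8 lower; 14.4% of all genes), 2 without both Control 3 and AKI 4 (2196 of 19938 genes), and 0 with only the groups compared, at an adjusted p under 0.01, and at 1.5-fold. The interaction had 1 call with array weights, Psme1 (4.44% of all genes). With 1 array left out the counts ran from 29 to 39 in AKI against Control, 22 to 34 in VHL-KO/AKI against VHL-KO, 0 to 2 in VHL-KO/AKI against AKI, 0 to 1 in the interaction and 0 to 0 in VHL-KO against Control. Of the 33 calls in AKI, 28 held with any 1 array left out and 32 under 3 scalings, and of the 30 in VHL-KO/AKI against VHL-KO, 21 and 29.

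Replicate numbers did not pair the arrays: over 20 same-numbered pairs the correlation of deviations ran from -0.381 to 0.204, and 3 pairs passed 0.1. With the replicate block the counts were 30 in AKI against Control, 25 in VHL-KO/AKI against VHL-KO, 1 in VHL-KO/AKI against AKI and 0 in the other comparisons.

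With the sex-linked covariate the sign turned for 8 called members in AKI against Control: Psma4 -0.07, Psmb1 -0.20, Psmb10 0.069, Psmd13 -0.42, Psmd2 -0.25, Psmd6 -0.028, Psme3 -0.05 and Psme4 -0.13. It turned for 12 in VHL-KO/AKI against VHL-KO: Psma1 -0.39, Psma3 -0.13, Psma4 -0.12, Psma5 -0.21, Psma6 -0.02, Psmb1 -0.10, Psmb5 -0.11, Psmd13 -0.33, Psmd14 -0.13, Psmd2 -0.37, Psmd6 -0.42 and Psme4 -0.22. None of these was past the threshold. The larger standard errors follow from the overlap of covariate and injury.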
